A study of Mus musculus with 2 samples.

Results

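The 10 genes described here mark Wnt signalling and the stem cells at the base of the intestinal crypt. They were chosen by gene symbol as known markers, with earlier results of these data already seen, and all 10 were found among the 32285 genes of both count tables. The list holds Lgr5, Ascl2, Axin2, Olfm4, Smoc2, Rnf43, Znrf3, Tnfrsf19, Gkn3 and Slc12a2. In the GENCODE annotation of the mouse genome (GRCm38), Lgr5 spans chromosome 10 from 115450311 to 115587780 on the minus strand. Olfm4 spans chromosome 14 from 79984081 to 80023139 and overlaps Gm6999 on the same strand, and Rnf43 spans chromosome 11 from 87662722 to 87735539 and overlaps 1110028F11Rik on the same strand, so that some of their reads could have been shared with or lost to these genes.

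Wnt ligands bind Frizzled receptors and LRP coreceptors and keep β-catenin from being degraded, so that it can enter the nucleus and switch on target genes with TCF/LEF factors. In the small intestine this signal is strongest at the crypt base, where columnar stem cells that carry Lgr5 lie between Paneth cells, and it fades towards the villus. Lgr5 binds R-spondin and strengthens the signal, while Axin2, Rnf43 and Znrf3 are both targets and brakes of it. Ascl2 is the transcription factor of the crypt base stem cell. Olfm4, Smoc2, Gkn3, Tnfrsf19 and Slc12a2 are known for high expression in crypt base cells, but they do different work there.

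The study compared sorted intestinal epithelial cells of wild type littermates (WT) with those of mice that overexpress MG53 (TRIM72), a membrane repair protein, in all tissues (MG53-TG). Both groups drank 2.5% dextran sulfate sodium (DSS), which injures the epithelium, and the cells were taken on day 7. Crypts were dissociated, living EpCAM+ cells were sorted, and unique molecular identifiers (UMIs, each standing for 1 captured RNA molecule) were counted with a 10x Genomics 3′ kit. Each group is 1 library, so there is no replicate check and no test between the genotypes. The labels give neither the strain, the age nor the segment of the intestine. The study's legend gives several mice for each group, but not whether their cells were pooled for a library. The counts of the 2 libraries were also made with different versions of Cell Ranger, which cannot be told apart from the genotype. Intervals are 95% intervals and cover counting error only.

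The transgene was seen in its library: in the kept cells Trim72 was counted 63 times in WT and 4636 times in MG53-TG, which is 0.579 and 50.8 counts per 1000000 UMIs (CPM). After filtering, 6963 WT and 4941 MG53-TG cells were kept, of which 6125 and 4608 were epithelial by marker genes. Their median depth was 15667 UMIs in WT and 18658 in MG53-TG. The libraries shared 46 cell barcodes of at least 500 UMIs, 8 of which passed the filter in both. A share of barcodes exceeded the mitochondrial limit of 25%, 33.7% in WT and 46.1% in MG53-TG, and was left out. The label gives the tissue only as intestine. In stem-like cells the genes of the small intestine summed to 1041 CPM in WT and 1122 in MG53-TG, and the genes of the colon to 3.41 and 2.32. The ileal gene Fabp6 stood at 23.8 CPM in the WT cells and at 2.48 in the MG53-TG cells, and whether the libraries hold the same stretch of intestine was not tested.

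Over all epithelial cells, Lgr5 and Tnfrsf19 were higher in the MG53-TG library and the other 8 genes differed little. Lgr5 was counted 414 times in WT and 566 times in MG53-TG, or 3.90 CPM (3.53 to 4.29) and 6.29 CPM (5.78 to 6.83), a log2 ratio of 0.69 (0.50 to 0.88). Tnfrsf19 was much rarer, with 88 and 126 UMIs, 0.829 and 1.40 CPM and a log2 ratio of 0.76 (0.35 to 1.17). A gene was counted as past the fold when it had at least 30 UMIs over both libraries, a log2 ratio of 0.5 or more in size and an interval without 0. By this rule 2 of the 10 genes were higher and 0 were lower, against 7.52% higher and 2.66% lower among the 14675 genes that had enough UMIs. The median log2 ratio of the 10 genes was 0.03, beside 0.07 for all those genes.

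The remaining genes of the list were near even in the epithelial sum. Slc12a2, the Na-K-Cl cotransporter of secreting cells, stood at 212 CPM in WT and 242 in MG53-TG, a log2 ratio of 0.19 (0.16 to 0.22). Ascl2 stood at 7.05 and 7.40 CPM, and Gkn3, a small secreted gastrokine, at 3.32 and 3.45. Among the Wnt feedback genes, Axin2 was at 17.3 and 17.6 CPM and Znrf3 at 5.06 and 5.08. The ubiquitin ligase Rnf43 was at 15.3 and 14.0 CPM, with a log2 ratio of -0.13 (-0.24 to -0.02). The secreted glycoprotein Olfm4 was at 334 and 332 CPM, and the matrix protein Smoc2 at 23.8 and 23.2. Since the libraries held the cell types in different shares, the levels were also set side by side with each cell type weighted as in WT. The log2 ratio of Lgr5 was then 1.01, that of Tnfrsf19 1.19, that of Gkn3 0.52 and that of Olfm4 0.49, and the others lay between 0.03 (Rnf43) and 0.35 (Ascl2). With all cell types weighted equally, Lgr5 was at 0.52 and Tnfrsf19 at 1.08.

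The share of epithelial cells with at least 1 Lgr5 UMI was 3.77% (231 cells, 3.31 to 4.28) in WT and 5.64% (260 cells, 4.99 to 6.35) in MG53-TG. Since the MG53-TG cells were deeper, the share expected with every cell cut to the minimum depth of a kept cell was also computed (the shallowest kept cells held 1355 UMIs in WT and 1356 in MG53-TG). This gave 0.524% for WT and 0.824% for MG53-TG, which differ by 0.300 percentage points with an interval of -0.0071 to 0.643. Cutting the depth left only 32.1 of the 231 WT and 38.0 of the 260 MG53-TG cells with an Lgr5 UMI, so that this measure could resolve only a large difference. As a background, 0 of 551 WT and 0 of 226 MG53-TG T cell-like cells held an Lgr5 UMI, which allows a share of up to 0.667% and 1.62% by the exact interval, at median depths of 2879 and 3589 UMIs. Of the enterocyte-like cells 0.207% and 0.504% held one, at median depths of 11457 and 16627 UMIs.

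Within the epithelium the genes of the list lay in different cell types, which were named from marker genes that include no member of the list. In WT, Lgr5 was highest in tuft-like cells, the chemosensory cells of the epithelium, at 35.0 CPM (28.2 to 43.0), followed by the stem-like cells at 10.5 CPM (8.73 to 12.5). Paneth-like, cycling and secretory progenitor-like cells came next at 5.98, 5.23 and 5.08 CPM, and the intervals of these 3 overlapped. Absorptive progenitor-like, goblet-like and enterocyte-like cells held 0.196, 0.187 and 0.153 CPM, also with overlapping intervals, and enteroendocrine-like cells held 0 UMIs. In MG53-TG the stem-like cells at 30.8 CPM (26.7 to 35.4) and the tuft-like cells at 29.0 CPM (23.9 to 34.8) shared the top with overlapping intervals. Cycling cells followed at 13.6 CPM (11.5 to 15.8), then secretory progenitor-like cells at 10.2 and Paneth-like cells at 8.41. All other epithelial types stayed below 1 CPM.

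**Figure D1:**
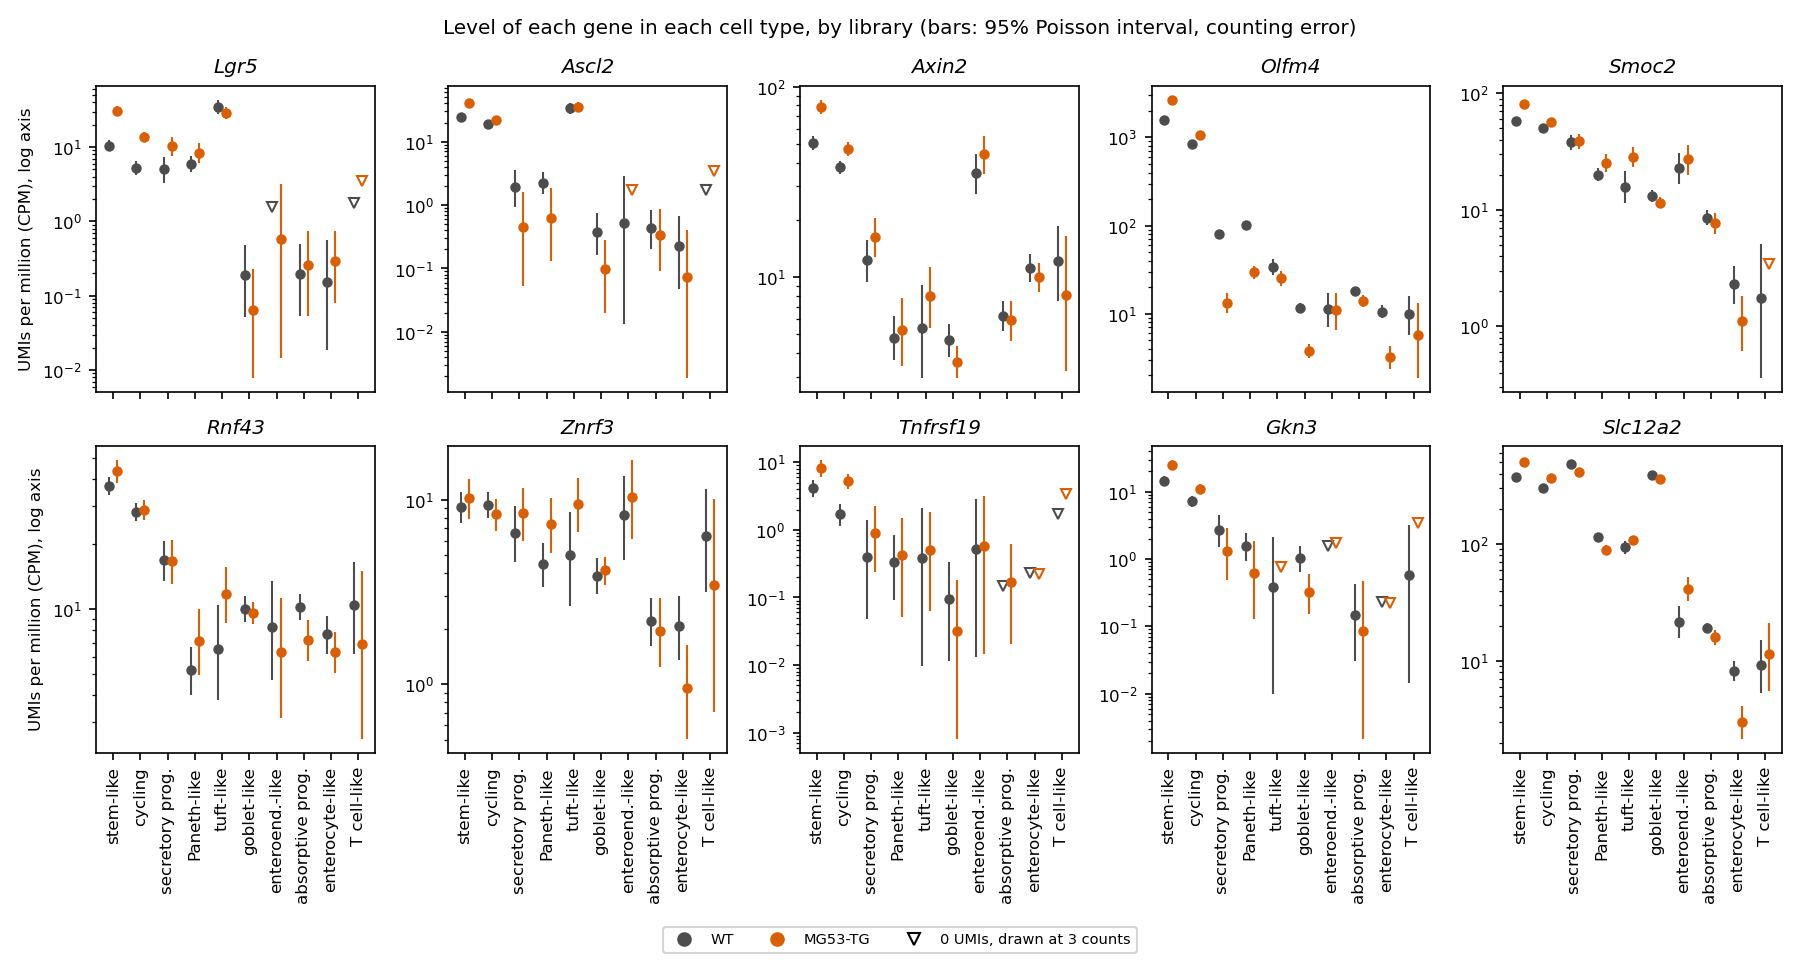
Level of each gene in CPM (y axis, log scale, a separate range for each panel) in 9 epithelial types and in T cell-like cells (x axis), with WT in grey and MG53-TG in orange. Bars are exact Poisson intervals for counting error, and open triangles mark 0 UMIs, drawn at the level of 3 counts. The stem-like and cycling cells lead for Olfm4, Gkn3, Tnfrsf19 and Rnf43, the tuft-like cells match the stem-like cells for Lgr5 and Ascl2 or exceed them, and Axin2 has a second high point in enteroendocrine-like cells.

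Tuft-like cells held 22.0% of the epithelial Lgr5 UMIs in WT and 20.0% in MG53-TG, although they made up 3.76% and 6.05% of the epithelial cells. Ascl2 stood at 33.5 and 35.4 CPM in them. Most of these cells formed 1 cluster (220 and 238 cells) with Lgr5 at 36.2 and 33.2 CPM and Ascl2 at 31.8 and 30.6 CPM. A second, small tuft-like cluster (10 and 41 cells) held 0 and 1 Lgr5 UMIs, but it had Ascl2 at 83.1 and 65.7 CPM and Smoc2 at 154 and 156 CPM. Gkn3, Tnfrsf19 and Axin2 were low in tuft-like cells: Gkn3 had 1 and 0 UMIs, Tnfrsf19 had 1 and 2, and Axin2 was at 5.39 and 7.94 CPM.

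Paneth-like cells make antimicrobial peptides and feed Wnt ligands to the stem cells. They held Lgr5 UMIs in 45 of 248 cells (18.1%) in WT and 26 of 98 (26.5%) in MG53-TG, at 5.98 and 8.41 CPM, a log2 ratio of 0.49 (-0.10 to 1.07). These were the deepest cells, with medians of 48153 and 45066 UMIs, and at the minimum depth a share of only 0.926% and 1.80% was expected. In secretory progenitor-like cells Lgr5 was at 5.08 CPM in WT and 10.2 in MG53-TG, a log2 ratio of 1.01 (0.28 to 1.76).

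Axin2, the scaffold of the β-catenin destruction complex, was spread more widely. It was highest in stem-like cells (50.7 and 78.2 CPM), but enteroendocrine-like cells held 35.1 and 44.3 CPM, where Lgr5 had 0 and 1 UMIs and Ascl2 had 1 and 0. Slc12a2 was high in some secretory types as well as in stem-like cells: secretory progenitor-like cells stood at 489 and 415 CPM and goblet-like cells at 393 and 361, beside 377 and 503 in stem-like cells. Paneth-like cells (114 and 89.5 CPM), tuft-like cells (93.9 and 107) and enteroendocrine-like cells (21.7 and 41.4) held less of it than the epithelial sum. Goblet-like cells made up 24.5% of the WT and 38.8% of the MG53-TG epithelial cells and held 37.2% and 51.5% of the epithelial Slc12a2 UMIs. Olfm4 lay almost wholly in stem-like and cycling cells, which held 53.5% and 39.1% of its UMIs in WT and 56.7% and 41.1% in MG53-TG.

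**Figure D2:**
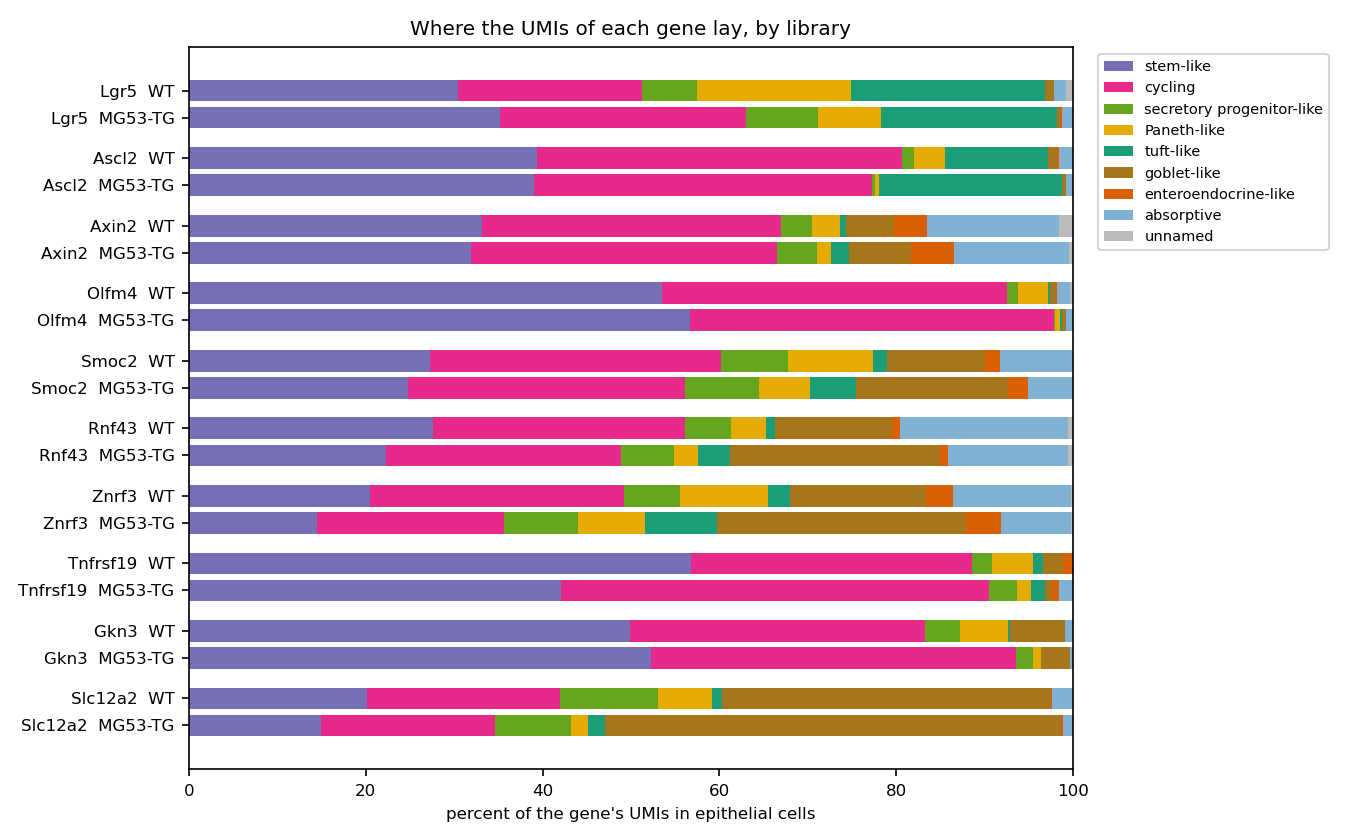
Percent of each gene's epithelial UMIs (x axis) that lay in each cell type (colours), with a bar for each gene and library (y axis). Olfm4, Gkn3 and Tnfrsf19 lie mostly in stem-like and cycling cells, Lgr5 and Ascl2 have a large tuft-like portion, and goblet-like cells hold 37.2% of the Slc12a2 UMIs in WT and 51.5% in MG53-TG.

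The stem-like cluster held 666 WT cells (10.9% of the epithelium) and 281 MG53-TG cells (6.10%), a difference of -4.78 percentage points (-5.81 to -3.73). In the stem-like cells 6 of the 10 genes were past the fold and higher in MG53-TG: Lgr5, Tnfrsf19, Gkn3, Olfm4, Ascl2 and Axin2. The other 4, Smoc2, Slc12a2, Rnf43 and Znrf3, had log2 ratios above 0 but were not past the fold, and the intervals of Rnf43 and Znrf3 crossed 0. Among the 10862 genes with enough UMIs, 3.71% were higher and 2.45% lower. The median log2 ratio of the list was 0.65, beside 0.03 for all those genes. Lgr5 had the largest ratio of the list, with 126 UMIs among the WT and 199 among the MG53-TG cells, 10.5 and 30.8 CPM and a log2 ratio of 1.56 (1.23 to 1.89). The share of stem-like cells with an Lgr5 UMI was 10.1% (67 cells) and 26.0% (73 cells), and 1.59% (0.827 to 2.94) and 4.39% (2.23 to 7.34) were expected at the minimum depth.

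Much of this gap in the list moved with how the stem-like cluster was bounded. A finer clustering of the same cells cut from it a smaller stem-like cluster of 201 WT and 156 MG53-TG cells, which is 30.2% (26.7 to 33.8) of the WT stem-like cells and 55.5% (49.5 to 61.4) of the MG53-TG ones. As a share of the whole epithelium the finer stem-like cluster was about the same size in both libraries, 3.28% of WT and 3.39% of MG53-TG epithelial cells, which differ by 0.104 percentage points (-0.576 to 0.804). The stem-like cells outside it made up 7.59% and 2.71%, a difference of -4.88 points (-5.69 to -4.06). The finer cluster was led by Chgb, Phldb2, Sfrp5, Rnase1, Dmpk, Tubb2b and Mex3a, of which Chgb is on the enteroendocrine and Mex3a on the stem marker list. The cells outside it were led by Cdkn2b and by Reg3g, Reg3b and Reg1, which encode secreted lectins, with Reg3b at 5087 CPM outside and 627 inside over both libraries. Reg3g and Reg3b are on the absorptive progenitor marker list. The 8 genes of that list summed to 10722 CPM in WT and 5829 in MG53-TG outside the finer cluster and to 1681 and 1600 inside it, while the 14 stem markers summed to 906 and 830 CPM outside. The cells outside are called stem-like here only as part of the whole cluster, since their leading genes go against that name.

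In the finer stem-like cluster 1 of the 10 genes, Lgr5, was past the fold, where 4.1% of 9400 genes were higher and 2.41% lower. The median log2 ratio of the list there was 0.32, beside 0.05 for all genes counted, and 9 of 10 genes were above 0. In the stem-like cells outside it the median of the list was 0.13, beside 0.02 for all genes counted. Again 1 gene of the list, Lgr5, was past the fold, where 2.61% of 10109 genes were higher and 2.81% lower. The log2 ratios there were 0.50 for Gkn3 (-0.14 to 1.11), 0.38 for Znrf3 (-0.31 to 1.04), 0.12 for Smoc2 and -0.23 for Rnf43 (-0.61 to 0.13). The cells outside the finer cluster were set apart after the data had been seen.

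**Figure D3:**
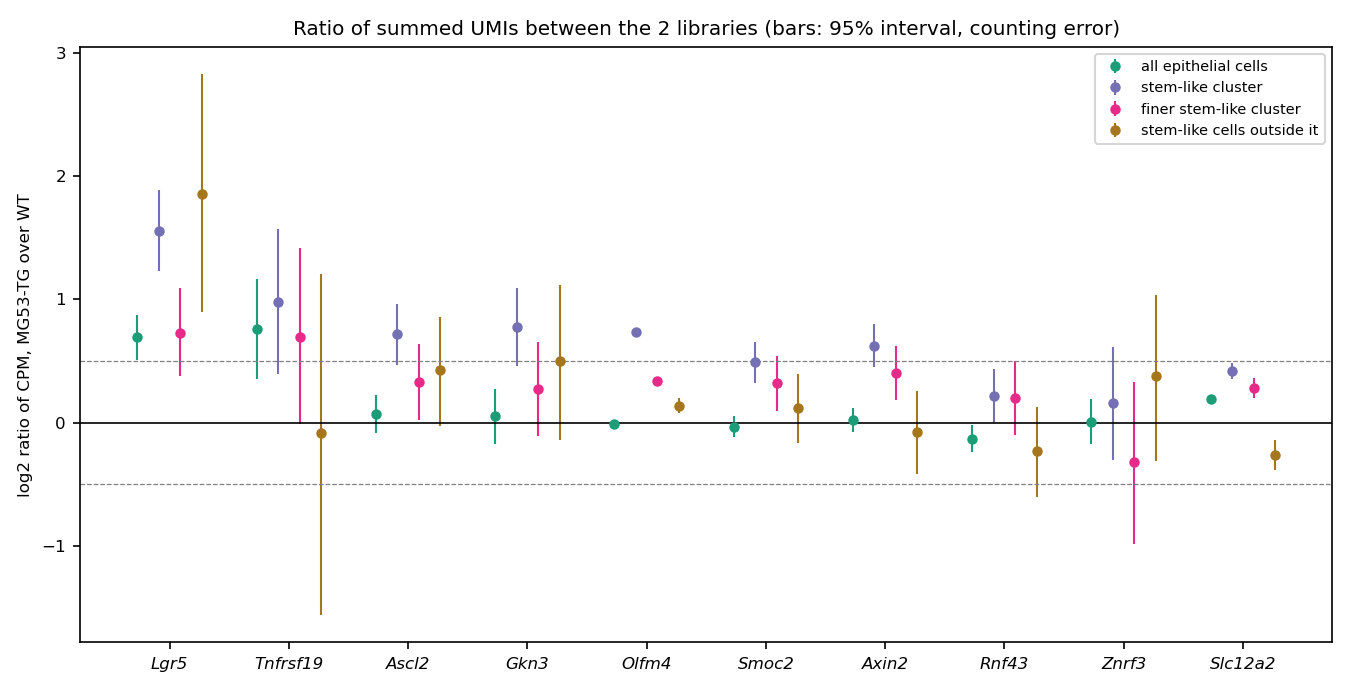
Log2 ratio of the CPM in MG53-TG over WT (y axis) for each gene (x axis) in all epithelial cells, in the stem-like cluster, in the finer stem-like cluster and in the stem-like cells outside it. Bars are exact intervals for counting error, and dashed lines mark a log2 ratio of 0.5 in either direction. For Olfm4, Axin2 and Gkn3 the value of the whole cluster lies above those of both of its parts, while Lgr5 is past the fold in all 4 sets of cells.

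Lgr5 was the gene whose difference was seen in every one of these sets. The finer stem-like cluster held 108 of its UMIs from WT and 176 from MG53-TG, or 30.8 CPM (25.3 to 37.2) and 51.2 CPM (43.9 to 59.3), a log2 ratio of 0.73 (0.38 to 1.09). This cluster held 85.7% of the Lgr5 UMIs of the WT stem-like cells and 88.4% of those of MG53-TG. Of its cells 51 of 201 (25.4%) and 62 of 156 (39.7%) held an Lgr5 UMI, and 4.56% (2.07 to 8.33) and 7.17% (3.57 to 12.3) were expected at the minimum depth, with overlapping intervals. Cells with 3 or more Lgr5 UMIs were 17 in WT (8.46%, 5.00 to 13.2) and 29 in MG53-TG (18.6%, 12.8 to 25.6), and the highest cell held 7 and 10. This share was not matched for depth, and the median depth was 16529 UMIs in WT and 19921 in MG53-TG. In the stem-like cells outside the finer cluster Lgr5 had only 18 and 23 UMIs, 2.11 and 7.62 CPM, with a wide log2 ratio of 1.85 (0.90 to 2.83).

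Tnfrsf19 (Troy) encodes a receptor of the TNF receptor family that can bind Lgr5. The WT stem-like cells held 50 UMIs of it and those of MG53-TG 53, which is 4.16 and 8.21 CPM and a log2 ratio of 0.98 (0.40 to 1.57). In the finer stem-like cluster it had 29 and 46 UMIs, 8.28 and 13.4 CPM, and its log2 ratio of 0.69 had an interval of -0.01 to 1.41. With 21 and 7 UMIs its ratio outside that cluster, -0.09 (-1.56 to 1.20), could not be placed on either side of 0. Tnfrsf19 was also looked for in cells with and without Lgr5. In WT 20 of 67 stem-like cells with an Lgr5 UMI (29.9%) and 26 of 599 without one (4.34%) held it, and in MG53-TG 30 of 73 (41.1%) and 10 of 208 (4.81%). Deeper cells are more likely to hold both genes, and these shares are a description.

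Tnfrsf19 lies on chromosome 14 at 60963875 to 61046490 of GRCm38, on the minus strand. Its promoters are printed here because it was 1 of the 2 genes past the fold in the epithelial sum. It was also the only match to the TCF/LEF motif among the 6 genes that could be searched. The letters CTTTGAT were looked for on both strands, so as ATCAAAG too, from 250 bases before to 50 bases after each start in the RefSeq promoter table (GRCm38.p6). Of the 10 genes 6 had entries there, 8 promoters in all, and 1 of the 8 held the motif, beside 1225 of all 32851 promoters (3.73%). Lgr5, Smoc2, Znrf3 and Slc12a2 had no entry and were not searched. The match, in capitals, begins 202 bases before 1 of the 2 starts of Tnfrsf19 (chr14:61037938-61038237, minus strand). The other start (chr14:61046806-61047105, minus strand) has no match. A match of letters is a description and not a site of binding.
Tnfrsf19 start with the motif: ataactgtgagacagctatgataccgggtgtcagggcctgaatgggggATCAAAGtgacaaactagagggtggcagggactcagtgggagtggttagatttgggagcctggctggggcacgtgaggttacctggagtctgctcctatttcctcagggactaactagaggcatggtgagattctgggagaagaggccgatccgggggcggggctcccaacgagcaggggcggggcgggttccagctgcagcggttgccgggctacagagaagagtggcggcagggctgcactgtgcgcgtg
Tnfrsf19 start without the motif: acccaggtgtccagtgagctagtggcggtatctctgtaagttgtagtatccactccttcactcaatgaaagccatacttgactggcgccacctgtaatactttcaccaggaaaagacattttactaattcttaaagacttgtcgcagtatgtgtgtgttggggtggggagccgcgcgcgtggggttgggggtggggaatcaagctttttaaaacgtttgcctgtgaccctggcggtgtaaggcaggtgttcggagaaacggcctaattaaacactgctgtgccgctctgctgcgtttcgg

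Ascl2, which sits on chromosome 7 (142966829 to 142969264, minus strand), had 24.5 CPM in WT and 40.3 in MG53-TG stem-like cells, a log2 ratio of 0.71 (0.47 to 0.96). In the finer stem-like cluster it was at 45.1 and 56.7 CPM with a log2 ratio of 0.33 (0.02 to 0.64), and outside it at 16.1 and 21.5 CPM with 0.42 (-0.03 to 0.86). In single cells Ascl2 was detected in 39 of 67 WT stem-like cells with an Lgr5 UMI (58.2%) and in 126 of 599 without one (21.0%). In MG53-TG the same shares were 71.2% of 73 and 33.7% of 208 cells. These shares also rise with depth and are a description. With cells thinned to the minimum depth Ascl2 was in 2 of 10 WT cells with Lgr5 and 20 of 656 without it. In MG53-TG it was in 3 of 10 and 13 of 271, and 10 cells give very wide intervals.

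Among the feedback genes, Axin2 (chromosome 11, 108920349 to 108950783) had the clearest difference. It stood at 50.7 CPM in WT and 78.2 in MG53-TG stem-like cells, a log2 ratio of 0.62 (0.45 to 0.80), and at 89.1 and 118 CPM in the finer cluster, with 0.40 (0.19 to 0.62). Outside the finer cluster its direction turned, at 35.0 and 33.1 CPM, with a log2 ratio of -0.08 (-0.42 to 0.25). Rnf43 and Znrf3, the membrane ligases that remove Frizzled from the cell surface, were not past the fold in any of these sets of stem-like cells. Rnf43 was at 37.3 and 43.4 CPM in stem-like cells (log2 ratio 0.22, -0.0016 to 0.44) and at 50.3 and 57.6 CPM in the finer cluster. Znrf3 was at 9.15 and 10.2 CPM in stem-like cells (0.16, -0.30 to 0.61), and in the finer cluster its log2 ratio was -0.32 (-0.98 to 0.33) from 47 and 37 UMIs.

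The remaining crypt base genes had smaller ratios in the finer cluster than in the whole one. Olfm4, a secreted glycoprotein, was the most abundant gene of the list in stem-like cells, with 1578 CPM in WT and 2623 in MG53-TG and a log2 ratio of 0.73 (0.70 to 0.76). In the finer cluster it was at 3207 and 4048 CPM, with 0.34 (0.30 to 0.37), and outside it at 909 and 1000 CPM, with 0.14 (0.08 to 0.20). A WT cell of the finer cluster with any Olfm4 UMI held 60.4 of them on average and a MG53-TG cell 92.8. These counts are not corrected for depth, and the MG53-TG cells there were deeper (median 19921 UMIs, beside 16529 in WT). Gkn3 was at 14.6 and 25.1 CPM in stem-like cells (0.78, 0.46 to 1.09) and at 30.8 and 37.2 CPM in the finer cluster (0.27, -0.11 to 0.65). Smoc2 was at 57.3 and 80.4 CPM in stem-like cells (0.49, 0.32 to 0.65) and at 86.5 and 108 CPM in the finer cluster (0.32, 0.09 to 0.54). Slc12a2, which lies on chromosome 18, was at 377 and 503 CPM in stem-like cells (0.42, 0.35 to 0.48), at 608 and 739 CPM in the finer cluster (0.28, 0.20 to 0.36), and at 282 and 235 CPM outside it (-0.26, -0.38 to -0.14).

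**Figure D4:**
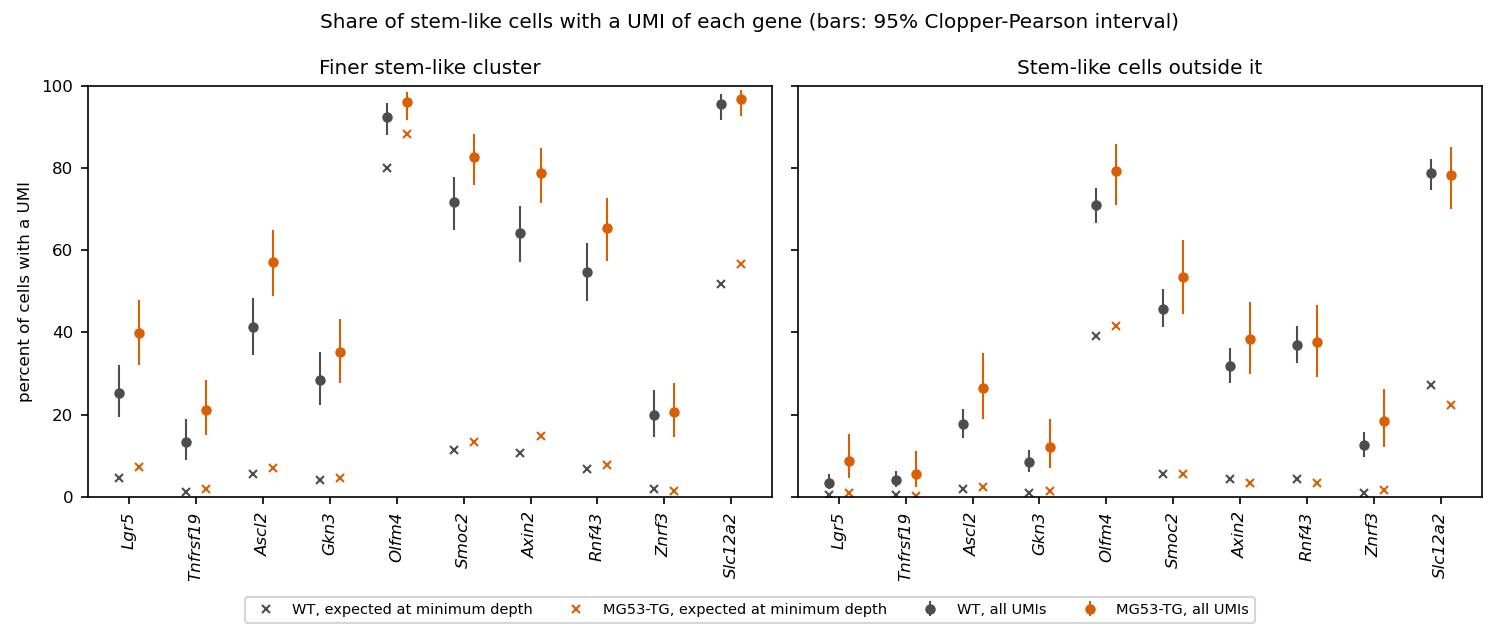
Percent of cells with at least 1 UMI of each gene (y axis) in the finer stem-like cluster (left, 201 WT and 156 MG53-TG cells) and in the stem-like cells outside it (right, 465 and 125 cells). Circles with Clopper-Pearson intervals use all UMIs, and crosses are the shares expected at the minimum depth. Lgr5 was found in 25.4% of the WT and 39.7% of the MG53-TG cells of the finer cluster, but in 3.44% and 8.80% of the cells outside it.

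Marker lists of other cell types moved with the genotype in the same cells, and their part in the ratios was not tested. In the finer stem-like cluster the 10 enteroendocrine markers summed to 86.0 CPM in WT and 332 in MG53-TG, with 1 marker of the list at 0 in each library. The 9 Paneth markers summed to 929 and 565 CPM, with none at 0. The 14 stem markers that name the cluster, of which no gene is on the present list, summed to 1474 and 1741 CPM, and the 12 cycling markers to 602 and 670. In the whole stem-like cluster the 8 absorptive progenitor markers summed to 8090 CPM in WT and 3576 in MG53-TG. The 8 secretory progenitor markers summed to 153 and 237 CPM there, and the 10 enteroendocrine markers to 45.7 and 185. The 9 Paneth markers summed to 1206 and 656 CPM, and the 10 tuft markers to 6.90 and 17.0. In the stem-like cells outside the finer cluster the 10 tuft markers summed to 5.75 and 27.5 CPM. The 8 absorptive progenitor markers summed to 10722 and 5829 CPM there. The 9 goblet markers summed to 1549 and 680 CPM in the same cells. In the whole stem-like cluster 1 WT cell held 12541 of the 12660 plasma cell marker UMIs of WT, and without this cell the median of the list there was 0.65 and 6 genes were past the fold. Without the barcodes that both libraries hold the median was 0.67, again with 6 genes past the fold. Fibroblast markers had 0 UMIs in the stem-like cells of both libraries.

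In cycling cells (603 WT and 380 MG53-TG), named from mitotic and replication genes, Tnfrsf19, Lgr5 and Gkn3 were past the fold and 0 genes were lower, where 6.46% of 11324 genes were higher and 1.4% lower. Tnfrsf19 had 28 and 61 UMIs, 1.70 and 5.24 CPM and a log2 ratio of 1.62 (0.95 to 2.32). Lgr5 had 86 and 158 UMIs, 5.23 and 13.6 CPM, with 1.37 (0.99 to 1.77). It was found in 6.80% of the WT and 15.3% of the MG53-TG cycling cells. At the minimum depth 0.751% (0.270 to 1.92) and 1.76% (0.744 to 3.76) were expected, with overlapping intervals. Gkn3 was at 7.18 and 11.0 CPM, with 0.61 (0.24 to 0.99). The cycling cells came from a large cluster (544 and 277 cells) and a small one with secretory markers (59 and 103 cells). In the large cluster alone 4 genes of the list were higher and 0 lower, where 3.21% of 11009 genes were higher and 1.78% lower. The log2 ratio of Lgr5 was 1.53 there, of Tnfrsf19 1.66, of Gkn3 0.83 and of Olfm4 0.54. The others, not past the fold, lay between -0.23 (Znrf3) and 0.46 (Axin2). Over all cycling cells Olfm4, Axin2, Slc12a2 and Ascl2 had log2 ratios of 0.32, 0.31, 0.30 and 0.22, and Smoc2, Rnf43 and Znrf3 of 0.15, 0.03 and -0.17. Marker sums moved in these cells as well, and their part was not tested. The 9 goblet markers summed to 6162 and 16471 CPM, the 9 Paneth markers to 1341 and 2313, and the 8 absorptive progenitor markers to 12675 and 7944.

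In the secretory cells Olfm4 and Gkn3 were lower in MG53-TG. Over the secretory cells (2587 WT and 2588 MG53-TG), Olfm4 had 1987 and 436 UMIs, 46.2 and 9.47 CPM and a log2 ratio of -2.29 (-2.44 to -2.14). The number of secretory cells with an Olfm4 UMI was 238 and 182, and such a cell held 8.35 UMIs on average in WT and 2.40 in MG53-TG. The secretory cells did not hold the same types in both libraries. Paneth-like cells were 248 of them in WT and 98 in MG53-TG and held 1216 and 140 of the Olfm4 UMIs, and the 9 Paneth markers summed to 177753 CPM over the WT and 87188 CPM over the MG53-TG secretory cells. Within types, Olfm4 was past the fold and lower in MG53-TG in Paneth-like cells (101 and 29.4 CPM, log2 ratio -1.78, -2.04 to -1.52), where 16.8% of all 8884 genes counted were lower and 1.88% higher. Few cells carried this value: 42 of 248 WT and 9 of 98 MG53-TG Paneth-like cells held Olfm4, and the highest cell held 218 and 62 of the UMIs. It was also lower in secretory progenitor-like cells (80.5 and 13.3 CPM, -2.60, -3.01 to -2.20), where 3.9% of 9585 genes were lower and 3.13% higher, and the highest cell held 71 of 412 and 25 of 60 UMIs. The intervals take UMIs as independent and are too narrow where a few cells hold most of them. In goblet-like cells it was at 11.6 and 3.79 CPM (-1.62, -1.95 to -1.29), levels near those of T cell-like cells, and 2.91% of 11853 genes were lower there and 2.06% higher. In the larger tuft-like cluster it was lower as well (29.4 and 6.53 CPM, -2.17, -2.93 to -1.47), where 2.86% of 8977 genes were lower and 3.11% higher. This cluster held 74 and 22 Olfm4 UMIs, and 33 of the 74 WT UMIs lay in 1 cell. The small tuft-like cluster, with 10 and 41 cells, held 178 and 145 CPM, so that over all tuft-like cells the ratio was -0.43. In enteroendocrine-like cells (11.4 and 10.9 CPM, -0.06, -1.02 to 0.90) Olfm4 was not past the fold. Over all secretory cells Gkn3 had 56 and 19 UMIs and a log2 ratio of -1.66 (-2.49 to -0.88). Here too few cells carried the value: 24 WT and 15 MG53-TG cells held Gkn3, with at most 9 and 2 UMIs in a cell. Its secretory levels were 1.30 and 0.413 CPM. In WT barcodes of at most 100 UMIs Gkn3 was at 1.49 CPM and Olfm4 at 193. These are shares of the free RNA and not the level that it adds to a cell. In WT T cell-like cells Gkn3 was at 0.580 CPM and Olfm4 at 9.86. WT Paneth-like and secretory progenitor-like cells held Olfm4 at 101 and 80.5 CPM. How much of either gene in secretory cells was free RNA was not tested. In goblet-like cells Gkn3 had 22 and 10 UMIs and was past the fold and lower (-1.68, -2.92 to -0.54). It had too few UMIs in Paneth-like (19 and 3) and secretory progenitor-like cells (14 and 6) to be compared. Within single types other genes were past the fold. Lower in MG53-TG was Ascl2 in Paneth-like cells, with 27 and 3 UMIs. Higher were Lgr5 in secretory progenitor-like cells (1.01, 0.28 to 1.76) and Znrf3 in Paneth-like cells (0.71, 0.06 to 1.35). Slc12a2 was higher in enteroendocrine-like cells (0.93, 0.36 to 1.52), where 3.58% of 9562 genes were higher and 3.42% lower. Smoc2 and Rnf43 (both 0.85) were higher in tuft-like cells, where 3.98% of 9268 genes were higher and 2.24% lower. In the larger tuft-like cluster alone Smoc2 was at -0.42 and Rnf43 at 0.58, both with intervals across 0. Over all secretory cells, Olfm4 and Gkn3 were the 2 of the list past the fold, where 5.66% of 13472 genes were higher and 4.02% lower. Lgr5 was even over this pool of types, at 4.48 and 4.39 CPM. Znrf3 had a log2 ratio of 0.26, Rnf43 of 0.13, Slc12a2 of 0.06, Ascl2 of 0.04, Axin2 of -0.03 and Smoc2 of -0.08, while Tnfrsf19 had 10 UMIs in each library.

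In the absorptive cells (1983 and 1261) 4 genes of the list were lower in MG53-TG and 0 were higher, where 4.22% of 11742 genes were higher and 4.02% lower. Olfm4 was at 15.2 and 8.28 CPM, a log2 ratio of -0.88 (-1.12 to -0.64). Slc12a2 was at 14.9 and 8.99 CPM (-0.72, -0.96 to -0.49) and Smoc2 at 6.13 and 4.14 CPM (-0.57, -0.92 to -0.22). Znrf3 had 72 and 36 UMIs, and its interval of -1.22 to -0.0033 came close to 0. Rnf43 had a log2 ratio of -0.45 and Axin2 of -0.01. Lgr5 had 6 and 7 UMIs in these cells, Ascl2 12 and 5, Gkn3 3 and 1, and Tnfrsf19 0 and 2, so that 6 of the 10 genes had enough UMIs to be compared. The absorptive cells mix progenitor-like cells (1017 and 467) with enterocyte-like cells (966 and 794), and the former held most of the UMIs of these 4 genes. Within the progenitor-like cells none of the 4 was past the fold: the log2 ratio was -0.36 for Olfm4 (-0.64 to -0.09), -0.26 for Slc12a2, -0.16 for Smoc2 (-0.55 to 0.21) and -0.17 for Znrf3 (-0.96 to 0.58). Rnf43 alone was past it there, at 10.2 and 7.24 CPM (-0.50, -0.88 to -0.13), where 3.73% of 10980 genes were higher and 2.72% lower. In the enterocyte-like cells the 4 genes were past the fold and lower in MG53-TG, where 3.42% of 10411 genes were higher and 2.99% lower. Their levels there were low: Olfm4 was at 10.6 and 3.23 CPM, Slc12a2 at 8.20 and 3.01, Smoc2 at 2.30 and 1.10 and Znrf3 at 2.07 and 0.955. In T cell-like cells Olfm4 was at 9.86 and 5.73 CPM, Slc12a2 at 9.28 and 11.5 and Znrf3 at 6.38 and 3.44, while Smoc2 had 3 and 0 UMIs. The enterocyte-like levels of these 4 genes were near or below those of T cell-like cells, and the differences are not read as changes in expression.

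Free RNA from broken cells adds UMIs to every droplet, and its make-up could be read only in WT, whose table holds barcodes of at most 100 UMIs. CPM in them are shares of the free RNA and not the level that it adds to a cell. Olfm4 stood at 193 CPM in those barcodes, Slc12a2 at 118, Smoc2 at 16.3, Rnf43 at 14.0 and Axin2 at 13.5. Lgr5, Gkn3 and Tnfrsf19 were scarce there, at 1.65, 1.49 and 0.66 CPM. In WT T cell-like cells Olfm4 was at 9.86 CPM, Axin2 at 12.2, Rnf43 at 10.4 and Znrf3 at 6.38, while Lgr5, Ascl2 and Tnfrsf19 had 0 UMIs there in both libraries. The Olfm4 levels of WT enterocyte-like and goblet-like cells, 10.6 and 11.6 CPM, were near that of the T cell-like cells. The MG53-TG levels of 3.23 and 3.79 CPM lay within the interval of its T cell-like cells, 5.73 CPM from 5 UMIs (1.86 to 13.4). Levels this low are not read as expression of the type, but single WT goblet-like and enterocyte-like cells held up to 44 and 39 Olfm4 UMIs, beside at most 1 in a T cell-like cell. The part of free RNA in the Olfm4 difference of secretory and absorptive cells was not tested.

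The Wnt pathway outside the list was followed with 47 further genes. In stem-like cells 30 of them had enough UMIs, and 4 were higher in MG53-TG and 0 lower, beside 3.71% higher and 2.45% lower among all genes counted, with a median log2 ratio of 0.13. Dvl1, which relays the signal from Frizzled, was at 8.73 CPM in WT and 17.0 in MG53-TG (log2 ratio 0.96, 0.57 to 1.36). Cd44, a Wnt target on the cell surface, was at 27.2 and 50.6 CPM (0.90, 0.67 to 1.12), and Ephb3, a target that keeps Paneth cells at the crypt base, at 6.90 and 11.0 CPM (0.67, 0.19 to 1.15). Sfrp5, a secreted Wnt inhibitor, was at 2.25 and 4.34 CPM (0.95, 0.13 to 1.77). In the finer stem-like cluster Cd44 (0.87) and Dvl1 (1.10) remained past the fold, while Sfrp5 (-0.03) and Ephb3 (0.11) were even. There Ccnd2 and Lrp5 were also past it, with log2 ratios of 0.52 and 0.86. Of the 29 further Wnt genes with enough UMIs in the finer cluster 4 were higher and 0 lower, with a median log2 ratio of 0.31. Among all 9400 genes counted there 4.1% were higher and 2.41% lower. The transducer Ctnnb1 was at 158 and 146 CPM in stem-like cells and the receptor Lgr4 at 59.1 and 51.6.

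In the epithelial sum 2 of 41 further Wnt genes were higher, Nkd1 (0.90) and Tcf7l1 (0.76), and 0 were lower, with a median of 0.07. Beside the 7.52% of all genes that were higher there, this count says nothing particular about Wnt genes. In absorptive cells 4 of 29 were lower in MG53-TG, Ccnd1 (-0.97), Myc (-0.93), Kremen1 (-0.73) and Sox9 (-0.66), and 0 were higher, beside 4.02% lower and 4.22% higher among all genes. Wnt3, the ligand known from Paneth cells, was highest in secretory progenitor-like (45.3 and 65.5 CPM), enteroendocrine-like (44.5 and 58.1) and Paneth-like cells (34.7 and 48.1), and stood at 1.91 and 2.32 CPM in stem-like cells. These genes beyond the 4 of stem-like cells were named after their values were seen.

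The genes whose level over 10 epithelial cell types in 2 libraries (the cells without a name counted as 1 type) was most like the mean of the list were Klhl23 (Pearson r = 0.95), Mgmt (0.94), Pole2 (0.93), Ifitm3 (0.92), Cgas (0.92), Rassf5 (0.92), Wdr76 (0.90), Alms1 (0.90), Tiam1 (0.90) and Ctps (0.90). The 20 points share 2 libraries, so r is a description without a test. Within the list Tnfrsf19 was most like the mean (0.94) and Axin2 least (0.65). Lgr5 was most like Ascl2 (0.84) and least like Axin2 (0.24).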

How the data were processed

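Single-cell RNA of sorted intestinal epithelial cells was measured in 1 WT and 1 MG53-TG library. The authors deposited UMI counts for every gene and barcode. Per the file headers the WT counts came from Cell Ranger 4 and the MG53-TG counts from Cell Ranger 6.0.1, and the submitters' processing notes name mm10 and Seurat. The WT table holds 2005718 barcodes and 158455748 UMIs, and that of MG53-TG 128227881 UMIs in 12361 barcodes of at least 500 UMIs.

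Here, barcodes with at least 200 genes, at most 25% mitochondrial UMIs and a minimum depth were kept (the shallowest kept cells held 1355 and 1356 UMIs). The automatic Scrublet threshold marked under 0.5% of cells, so the top 438 WT and 212 MG53-TG scores were removed instead. Cells were clustered with scanpy 1.11.5 (2000 variable genes per library without the 10 genes, 30 components, Leiden resolution 1, and 2 for the finer clusters) into 21 clusters, named from marker lists. UMIs were summed over cells, and CPM are UMIs per 1000000 of that sum. Ratios have exact conditional binomial intervals, levels exact Poisson intervals, and shares exact Clopper-Pearson intervals (scipy 1.17.1). A difference of shares has a Newcombe interval. Medians of ratios used CPM plus 1. Shares at the minimum depth are exact hypergeometric expectations. The steps were tested on simulated data.

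The 10 genes, the marker lists and the further Wnt genes were chosen with earlier results of these data known. All 10 were to be named in each comparison, further Wnt genes when past the fold in stem-like cells, at most 12, and the 10 genes most correlated with the list.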

Additional observations from a re-analysis of the deposited data

Results flagged for a closer look

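Olfm4 was higher in MG53-TG in stem-like cells (log2 ratio 0.73) and lower in secretory-like (-2.29) and absorptive-like cells (-0.88), so that the direction differed between these pools of cells. The absorptive value is of a pool, and in absorptive progenitor-like cells the ratio was -0.36. Gkn3 was likewise higher in stem-like (0.78) and cycling-like cells (0.61) and lower in secretory-like cells (-1.66). It had only 56 UMIs in WT and 19 in MG53-TG secretory-like cells, and the part of free RNA in them was not tested. With 1 library per genotype the difference between these pools was not tested.

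Barcodes above the mitochondrial limit of 25%, which entered no comparison of the report, held Axin2 at 15.6 CPM in MG53-TG (14.1 to 17.2), above the 12.2 CPM (10.6 to 13.9) of such barcodes in WT. Lgr5 was at 0.644 CPM in those of WT and 0.745 in those of MG53-TG, far below the kept epithelial cells. Those of at most 50% entered the results only where that limit was tried as an alternative.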

How the results depend on the processing

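The results were computed again under 19 other settings, 5 of which were chosen after seeing the data. In stem-like cells the median log2 ratio of the 10 genes, 0.65 as reported, moved with the border and the depth of the cells. It was 0.32 with 1 gene past the fold at Leiden resolution 2, 0.34 with 2 genes when each library was clustered on its own, and 0.83 with 3 genes when cells were thinned to the minimum depth. Thinning left fewer UMIs per gene, and the cause of the other shifts was not tested. In the stem-like cells outside the finer cluster it was 0.13 with 1 gene, and Axin2 (-0.0771) and Tnfrsf19 (-0.0868) turned direction there, both with intervals across 0. Slc12a2 (-0.26, -0.38 to -0.14) and Rnf43 (-0.23) were below 0 there too. Under the other settings the median lay between 0.55 and 0.73 and the count between 6 and 8. In the epithelial sum 2 genes were past the fold throughout, but with thinned cells these were Lgr5 and Znrf3 (0.95), not Tnfrsf19, and Ascl2 moved from 0.07 to -0.54 (-1.22 to 0.11). The median there ran from -0.06 with median-of-ratios scaling, which shifted all values by -0.09, to 0.06. The difference in the share of cells with an Lgr5 UMI lay between 0.147 and 0.304 percentage points. No paired analysis was possible because each group is 1 library. For the same reason no replicate could be left out.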
